A study of Homo sapiens with 6 samples.

Results

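The proteasome genes were followed in U373MG cells, an established human glioblastoma cell line, exposed for 24 hours to 1 of 3 tetrahydroisoquinoline alkaloids. Members were all gene symbols of the probe annotation that begin with PSM, continue with a letter from A to G and end in a number, which takes in the subunits of the proteasome, its activators, its inhibitor and its assembly factors. Of 18418 genes with a probe of 1 symbol, 45 met this rule, carried by 51 probes. A further 3 symbols, PSMC5, PSMD7 and PSMD13, were not analysed here. The compounds were ET-770 (4.83 nM), ET-770-DR (1.70 nM), which carries an added pyridinecarbonyl group on ET-770, and renieramycin M, or RM (3.10 nM). Each was given at its IC50, a concentration set from a viability assay, and every compound had its own DMSO (vehicle) culture, treated for the same time in the same experiment. The 6 cultures gave 6 arrays, 1 for each compound and 1 for each DMSO control, all of the same cell line with no other genotype or agent. In bulk RNA of this kind, a lower signal per cell and a smaller share of cells carrying a transcript cannot be told apart. Signals are log2 values as deposited, and a change is the compound array minus the DMSO array of its experiment, so that positive values are higher with the compound.

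The proteasome is the protease that degrades most ubiquitin-tagged proteins of the cytosol and nucleus. Its core is a barrel of alpha rings, which form the gate, around beta rings, which hold the catalytic sites, and a regulatory particle made of an ATPase base and a lid binds the tagged protein, removes the ubiquitin and unfolds the chain. Under interferon, cells exchange the catalytic beta subunits for those of the immunoproteasome, and the transcription factor NRF1 (NFE2L1) raises the subunit genes together when proteasome activity is short.

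Of the 45 members, 5 rose and 1 fell over the 3 compounds together, in limma with the experiment as a block and Benjamini-Hochberg adjustment over 18418 genes (adjusted p under 0.05, n = 3 pairs). PSMB8, PSMG3, PSME2, PSMA5 and PSMB10 rose and PSMD1 fell. The members that rose were 11.1% of the 45, beside 13.1% of all genes, and the member that fell was 2.22%, beside 11.2%, so that at this threshold neither share stood above the background. At an unadjusted p under 0.05, 15 members (33.3%) were higher, beside 19.4% of all genes, and 2 (4.44%) were lower, beside 14.4%. Changes were small: the median of the members' mean changes was 0.14 log2, against 0.03 for all genes. Taken in each pair apart, the members' median change had an SD of 0.08 over the 3 pairs, as did that of all genes. No member passed 3-fold in either direction with any compound, beside 0.233% and 2.15% of all genes for ET-770, 0.510% and 2.12% for ET-770-DR, and 0.0434% and 1.36% for RM. Without the experiment block none of the 6 members was called, while 26 genes of the whole array were called higher and 369 lower, against 2406 and 2065 with it. With single experiments left out, the count of members that rose was 1 without ET-770 (PSMB8, with PSMD1 lost too), 3 without ET-770-DR (PSMA5 and PSMB10 lost) and 12 without RM. In the fit with trend and robust settings 15 members rose, or 33.3% beside 15.1% of all genes. Without RM the 12 were 26.7% beside 19.0%. Among genes at or above the 30th percentile of mean signal, 7 of 43 members rose, or 16.3% beside 20.6%. Whether the share that rose stood above the background thus changed with the setting.

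More members were higher in every pair than the share of all genes that were. In all 3 pairs, 27 of the 45 members were higher than their DMSO control, or 60% beside 29.6% of all genes, and 5 were lower in all 3 pairs, beside 20.6%. The members' median change was 0.13 for the ET-770 pair, 0.26 for the ET-770-DR pair and 0.12 for the RM pair, against 0.02, −0.03 and 0.12 for all genes, so the RM median did not stand apart from that of the array. Higher signals than with DMSO were measured for 80.0% of members in the ET-770 pair, 84.4% in the ET-770-DR pair and 66.7% in the RM pair, beside 53.3%, 47.0% and 62.4% of all genes. The shares of all genes include genes of low signal. Of the members, only PSMA8, PSMB11 and PSMG4 lay below the median of all genes on every array. No share among genes of like signal is given. No test was made over the members, which share the same 6 cultures.

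**Figure D1:**
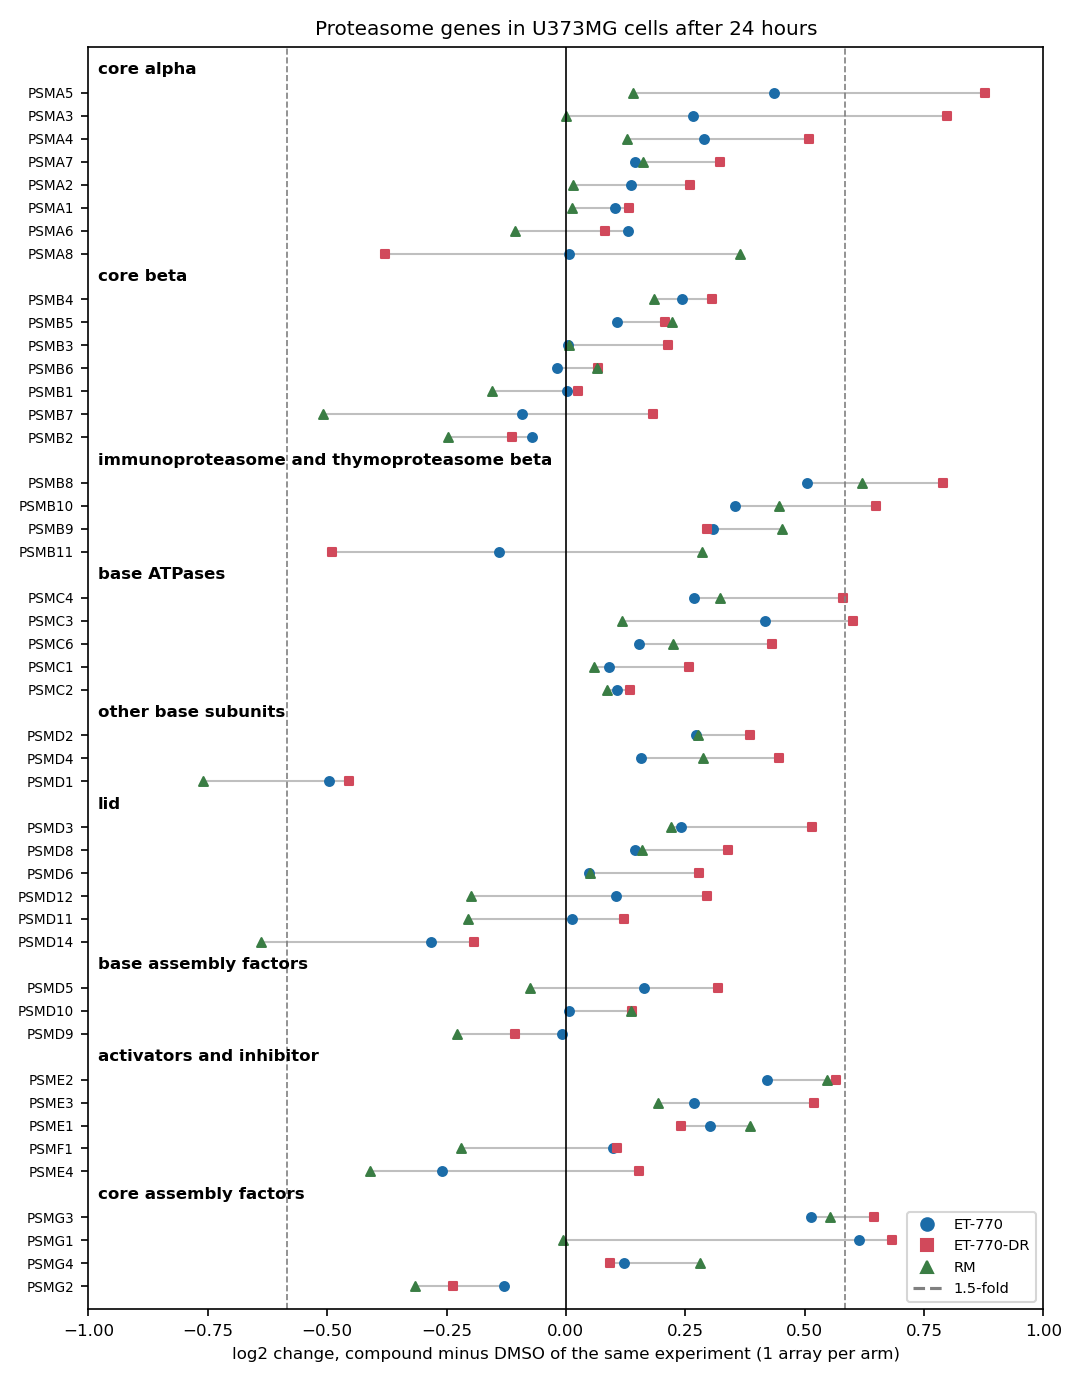
Log2 change (compound minus its own DMSO array) of each of the 45 proteasome members, 1 row a gene, with 1 point for ET-770, 1 for ET-770-DR and 1 for RM, grouped by role. Most points lie right of 0, and PSMD1 lies left of 0 with every compound (−0.50, −0.46 and −0.76).

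The compounds served as replicates of each other in this comparison, and there is no replicate array for any single compound. Because their doses differed, values are set side by side and were not tested against each other. Past 1.5-fold, ET-770 took 1 member up, PSMG1, and none down, beside 8.32% and 8.56% of all genes. ET-770-DR took 7 up, PSMA5, PSMA3, PSMB8, PSMB10, PSMC3, PSMG1 and PSMG3, and none down, beside 12.2% and 10.4%. RM took 1 up, PSMB8, and 2 down, PSMD1 and PSMD14, beside 6.21% and 9.64%. These counts have no replicate check.

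The DMSO arrays differed from each other by more than most responses. Across the 3 DMSO arrays the members spanned a median of 1.13 log2, beside 0.92 for all genes, and 0.68 beside 0.51 after quantile normalization. The span as deposited exceeded the absolute mean change in 44 of 45 members, or 97.8%, beside 90.8% of all genes. Sorted signals differed by a mean of at most 0.08 log2 between the arrays of 1 experiment and by up to 0.63 between experiments, and whether the experiments were normalized together is not given in the sources used here. Changes and tests therefore set each compound array against its own DMSO array, and whether groups overlap over all 6 arrays is given as a description. Of 9 glioma and astrocyte markers, 7 lay above the array median on all 6 arrays, and none of the leukocyte, epithelial or neuron markers did on any array. GFAP and AQP4 were the glioma markers that did not, and 1 of 2 endothelial and 1 of 2 oligodendrocyte markers lay above it on some array.

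The inducible and tissue-specific beta subunits are those of the immunoproteasome together with PSMB11 of the thymoproteasome. They gave the highest median of all groups, 0.42 log2. Of these 4 genes, 2 rose (50%, beside 13.1% of all genes) and none fell (beside 11.2%). PSMB8, which takes the place of PSMB5 in the immunoproteasome and has its chymotrypsin-like site, read 10.04 with ET-770 against 9.53 with its DMSO, 8.81 with ET-770-DR against 8.02, and 10.98 with RM against 10.36. It stood at 1.42-fold, 1.73-fold and 1.54-fold of DMSO and rose by a mean of 0.64 (SE 0.12, n = 3 pairs, limma adjusted p = 0.0048), the largest of the members. Every compound array was above its own control, but the groups overlapped, since the DMSO signals of PSMB8 spanned 2.34 log2. PSMB10, which replaces PSMB7, read 8.88 with ET-770 against 8.53 with DMSO, 8.25 with ET-770-DR against 7.60, and 8.92 with RM against 8.47, and rose by 0.48 (SE 0.13, n = 3 pairs, limma adjusted p = 0.0195). PSMB9, which replaces PSMB6, read 10.41 with ET-770 against 10.10 with DMSO, 9.27 with ET-770-DR against 8.97, and 10.25 with RM against 9.80. Its mean change of 0.35 missed the threshold (limma adjusted p = 0.064). All 3 genes were higher than their DMSO control in each pair. PSMB8 and PSMB9 are each carried by 3 probes with the same values, which count as 1 measurement. PSMB11, the beta subunit of the thymus, had low signals of 4.96 to 5.82 with the compounds and 5.18 to 5.96 with DMSO, and its changes went both ways.

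The constitutive counterparts moved less. PSMB5 read 11.23 with ET-770 against 11.13 with DMSO, 10.41 with ET-770-DR against 10.20, and 10.42 with RM against 10.20, a mean change of 0.18 (95% interval −0.09 to 0.45), beside 0.36 to 0.92 for PSMB8. PSMB6 read 12.99 with ET-770 against 13.01 with DMSO, 12.79 with ET-770-DR against 12.73, and 12.49 with RM against 12.42, a mean change of 0.04 (−0.23 to 0.31), beside 0.08 to 0.62 for PSMB9. PSMB7 read 11.23 with ET-770 against 11.32 with DMSO, 10.50 with ET-770-DR against 10.32, and 11.21 with RM against 11.72, a mean change of −0.14 (−0.48 to 0.20), beside 0.20 to 0.77 for PSMB10, and without the RM pair the mean of PSMB7 was 0.046. In each of these 3 pairs of paralogs the mean change was higher for the inducible subunit. The difference between the paralogs was not tested.

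The activator that is often induced together with the immunoproteasome is formed by PSME1 and PSME2, which open the gate of the core without ATP. PSME2 read 11.30 with ET-770 against 10.87 with DMSO, 10.16 with ET-770-DR against 9.59, and 10.05 with RM against 9.50. It rose by 0.51 (SE 0.12, n = 3 pairs, limma adjusted p = 0.0126), at 1.34-fold, 1.48-fold and 1.46-fold. PSME1 read 11.38 with ET-770 against 11.08 with DMSO, 10.47 with ET-770-DR against 10.23, and 10.48 with RM against 10.09, and its mean change of 0.31 missed the threshold (limma adjusted p = 0.097). Both genes were higher in all 3 pairs, and for both the groups overlapped. PSME3, the nuclear activator, read 12.52 with ET-770 against 12.25 with DMSO, 12.25 with ET-770-DR against 11.73, and 11.65 with RM against 11.46, a mean change of 0.33 (limma adjusted p = 0.097). PSME4, a large single-chain activator, changed by −0.26 (ET-770), 0.15 (ET-770-DR) and −0.41 (RM), and the inhibitor PSMF1 by 0.10, 0.11 and −0.22. The 5 activator and inhibitor genes had a median mean change of 0.31. Of them, 1 rose (20%, beside 13.1% of all genes) and none fell (beside 11.2%).

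The promoters of PSMB10 and PSME2 are shown because both genes rose and the stretch of 120 bases before the start site of each holds the same letters of the interferon-stimulated response element, the box bound by interferon regulatory factors. Capitals mark the match to its core, GAAA and GAAA with any 2 bases between. The stretches are the RefSeq windows of build GRCh38.p14 at chr16:67936851-67936970 for PSMB10 and chr14:24146611-24146730 for PSME2, both on the minus strand and printed 5′ to 3′.
PSMB10: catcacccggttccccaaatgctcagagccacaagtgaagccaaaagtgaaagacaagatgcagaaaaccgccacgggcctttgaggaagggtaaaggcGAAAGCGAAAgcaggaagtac
PSME2: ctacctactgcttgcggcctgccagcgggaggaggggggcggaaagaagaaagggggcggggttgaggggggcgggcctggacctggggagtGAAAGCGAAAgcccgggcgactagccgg
In both genes the capitals read GAAAGCGAAA. These letters are not particular to genes that rose. PSMG4, which was not called, holds them at −33 to −24 from its start site. They lie on the other strand in PSMB8, which rose, and in PSME1, which was not called. Over the whole windows of 300 bases (250 before to 50 after the start), on both strands, 7 of the 39 members with a window held this core, or 17.9%, beside 4.38% of the 27305 genes with a window. The 7 genes were PSMB8, PSMB10, PSME1, PSME2, PSMA4, PSMB4 and PSMG4. Of these, PSMB8, PSMB10 and PSME2 passed the test, and PSME1, PSMA4, PSMB4 and PSMG4 did not. Of all 45 members 11.1% rose, beside 13.1% of all genes. The gamma-activated sequence core TTCNNNGAA, which STAT factors bind, was held by 8 members, or 20.5%, beside 9.38%. Both motifs were picked after the members' values were seen, and a match is a description of letters. A link between the letters and the calls was not tested.

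**Figure D2:**
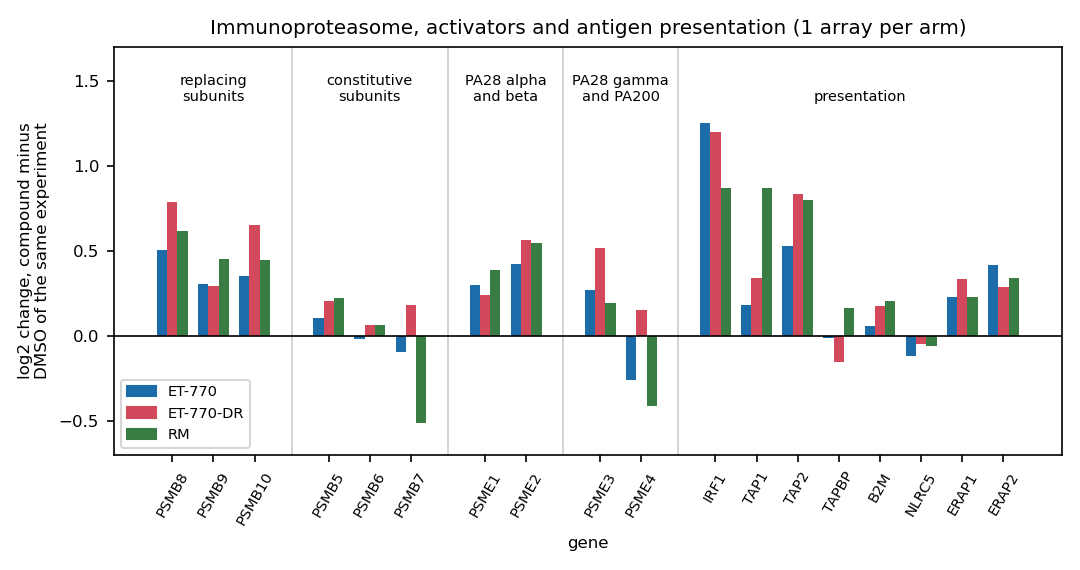
Log2 change (compound minus its own DMSO array) of the inducible beta subunits (replacing subunits), their constitutive counterparts, PSME1 and PSME2 (PA28 alpha and beta), and the genes of interferon and MHC class I presentation, with 1 bar for each compound and PSME3 and PSME4 (PA28 gamma and PA200) shown as well. PSMB8, PSMB10 and PSME2 lie above 0 with every compound, as do IRF1 (1.25, 1.20 and 0.87) and TAP2 (0.53, 0.83 and 0.80).

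PSMB8 lies between TAP2 and TAP1 in the gene order of GRCh38.p14, and PSMB9 between TAP1 and HLA-DMB, so the neighbours are part of the same antigen presentation cluster. In the list of 8 measured genes of interferon and MHC class I presentation, 2 rose (25%, beside 13.1% of all genes) and none fell (beside 11.2%). IRF1, an interferon-induced transcription factor, read 9.86 with ET-770 against 8.61 with DMSO, 8.80 with ET-770-DR against 7.60, and 9.10 with RM against 8.22. It rose by 1.11 (SE 0.13, n = 3 pairs, limma adjusted p = 0.00031), and its compound arrays lay above all DMSO arrays. TAP2, a chain of the peptide transporter, read 10.58 with ET-770 against 10.05 with DMSO, 10.24 with ET-770-DR against 9.41, and 9.92 with RM against 9.12, and rose by 0.72 (SE 0.13, n = 3 pairs, limma adjusted p = 0.0027). TAP1, its partner chain, changed by 0.18, 0.34 and 0.87 with ET-770, ET-770-DR and RM and missed the threshold (limma adjusted p = 0.053). B2M, the light chain of MHC class I, had a mean change of 0.15, TAPBP of 0.00 and NLRC5, the class I transactivator, of −0.07. None of these 3 was called. The trimming peptidases ERAP1 and ERAP2 had mean changes of 0.26 and 0.35 and were not called.

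The alpha subunits make the outer rings and the gate of the core. Of these, 1 of 8 rose (12.5%, beside 13.1% of all genes) and none fell (beside 11.2%), with a median mean change of 0.17. PSMA5 read 10.55 with ET-770 against 10.12 with DMSO, 10.05 with ET-770-DR against 9.17, and 11.39 with RM against 11.24. It rose by 0.49 (SE 0.15, n = 3 pairs, limma adjusted p = 0.0473), at 1.35-fold, 1.84-fold and 1.1-fold, so the ET-770-DR pair carried the largest part. PSMA3 followed the same order with 1.20-fold, 1.74-fold and 1.00-fold, from signals of 10.94 with ET-770 against 10.68 with DMSO, 10.65 with ET-770-DR against 9.86, and 11.19 with RM against 11.19. PSMA4 read 12.39 with ET-770 against 12.10 with DMSO, 11.91 with ET-770-DR against 11.40, and 12.90 with RM against 12.77. Neither PSMA3 nor PSMA4 was called (limma adjusted p = 0.16 and 0.12).

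PSMA8, the testis paralog of PSMA7, was near the bottom of every array. PSMA7 read 11.12 with ET-770 against 10.97 with DMSO, 10.23 with ET-770-DR against 9.91, and 11.56 with RM against 11.40, a mean change of 0.21. PSMA8 read 4.15 with ET-770 against 4.14 with DMSO, 3.00 with ET-770-DR against 3.38, and 3.56 with RM against 3.19, at percentiles 0.77 to 2.85 of all genes. No change is read from signals that low. PSMA1, PSMA2 and PSMA6 had mean changes of 0.08, 0.14 and 0.03.

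The promoter of PSMA5 is shown as that of the alpha subunit that rose. Its 120 bases before the start site (GRCh38.p14 chr1:109426449-109426568, minus strand, RefSeq) hold a pair of CCAAT boxes, the letters bound by NF-Y, which are in capitals.
PSMA5: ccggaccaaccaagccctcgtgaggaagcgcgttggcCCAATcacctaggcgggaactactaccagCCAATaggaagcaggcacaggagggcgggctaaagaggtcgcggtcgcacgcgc
CCAAT was found on either strand in the windows of 18 of 39 members, or 46.2%, beside 39.7% of the 27305 genes with a window. A pair of matches also lies in the windows of PSMA3, PSMB3, PSMB11 and PSMD14, none of which was called. Of these, PSMD14 was lower than DMSO in all 3 pairs. GGGCGG, the box of the SP1 family, was found in 26 members, or 66.7%, beside 48.3%. The printed stretch of PSMA5 holds it too, without capitals.

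The 7 constitutive beta subunits had the lowest median of the subunit groups, 0.04, and none was called, beside 24.3% of all genes. PSMB4, which has no catalytic site, read 12.30 with ET-770 against 12.06 with DMSO, 11.45 with ET-770-DR against 11.15, and 13.05 with RM against 12.87, a mean change of 0.24 (limma adjusted p = 0.19). PSMB2 read 12.52 with ET-770 against 12.59 with DMSO, 12.07 with ET-770-DR against 12.18, and 12.20 with RM against 12.44. It was the only one of the 7 that was lower in all 3 pairs, by a mean of −0.14. PSMB1 and PSMB3 had mean changes of −0.04 and 0.07.

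All 5 measured base ATPases, the ring that unfolds substrates, were higher than DMSO in all 3 pairs. This held for 60% of the 45 members and 29.6% of all genes. None of the 5 passed the test, beside 13.1% of all genes that rose and 11.2% that fell. Their median mean change was 0.27, with 0.15 for ET-770, 0.43 for ET-770-DR and 0.12 for RM. PSMC4 read 12.62 with ET-770 against 12.35 with DMSO, 12.27 with ET-770-DR against 11.69, and 11.69 with RM against 11.37, and narrowly missed the threshold at a mean change of 0.39 (limma adjusted p = 0.051). PSMC3 read 11.54 with ET-770 against 11.13 with DMSO, 10.86 with ET-770-DR against 10.26, and 11.54 with RM against 11.42, a mean change of 0.38 (limma adjusted p = 0.074). Both were higher in every pair, most so with ET-770-DR. PSMC6 read 9.89 with ET-770 against 9.74 with DMSO, 9.24 with ET-770-DR against 8.81, and 10.07 with RM against 9.85. Its 2 probes gave mean changes of 0.27 each, and those of PSMC1 0.14 and 0.13. The compound and DMSO arrays overlapped for each of the 5 genes.

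PSMD1 and PSMD2, the large scaffolds of the base, went in opposite directions. PSMD1, which docks ubiquitin receptors, read 10.89 with ET-770 against 11.38 with DMSO, 10.53 with ET-770-DR against 10.99, and 10.74 with RM against 11.50. It fell to 0.709-fold, 0.730-fold and 0.590-fold of DMSO, a mean change of −0.57 (SE 0.13, n = 3 pairs, limma adjusted p = 0.0093). PSMD1 was also the only member whose compound arrays all lay below all DMSO arrays, beside 5.34% of all genes, and no member lay above on all, beside 3.62%. PSMD2 read 12.14 with ET-770 against 11.87 with DMSO, 11.68 with ET-770-DR against 11.29, and 11.86 with RM against 11.58, a mean change of 0.31 that was not called (limma adjusted p = 0.094). PSMD4, a ubiquitin receptor, read 9.03 with ET-770 against 8.88 with DMSO, 8.58 with ET-770-DR against 8.13, and 9.91 with RM against 9.62. Its mean change was 0.30 (limma adjusted p = 0.13), with a higher signal in each pair. ADRM1, the other ubiquitin receptor of the base and no PSM symbol, read 12.15 with ET-770 against 11.83 with DMSO, 11.85 with ET-770-DR against 11.20, and 12.03 with RM against 11.46. ADRM1 rose by 0.51 (SE 0.13, n = 3 pairs, limma adjusted p = 0.016), and its groups did not overlap. The call of ADRM1 was lost without the ET-770 experiment (limma adjusted p = 0.061) and without the ET-770-DR experiment (0.074).

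The promoter of PSMD1 is shown as that of the member that fell. In the 120 bases before its start site (GRCh38.p14 chr2:231056747-231056866, plus strand, RefSeq) capitals mark an E2F box, TTCGCGC.
PSMD1: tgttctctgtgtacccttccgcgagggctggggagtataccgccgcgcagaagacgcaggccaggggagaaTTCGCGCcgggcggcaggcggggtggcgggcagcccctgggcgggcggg
TTCGCGC or TTGGCGC was held on either strand by 8 of 39 members, or 20.5%, beside 6.10% of the 27305 genes with a window. The box is not particular to the member that fell. PSMA4 and PSMB4, which were higher in all 3 pairs, hold it and were not called. PSMB2, PSMA6, PSMD5, PSMD9 and PSMG2 hold it too and were not called. The printed stretch also holds GGGCGG, which is not marked.

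**Figure D3:**
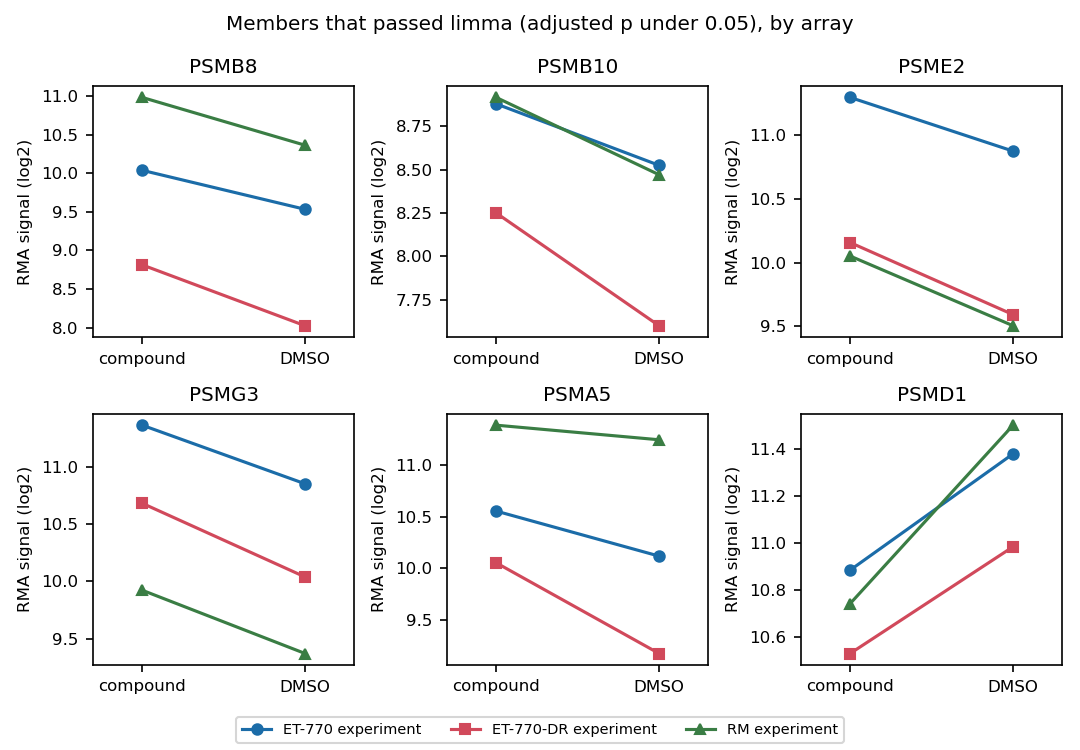
Deposited log2 signal of members that passed the test on each of the 6 arrays, 1 panel a gene, with each compound array to the left of the DMSO array of its experiment and a line joining the pair. For PSMB8 the lines run at different heights, from 8.02 to 10.98, and for PSMD1 every compound point lies below every DMSO point.

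None of the 6 measured lid genes was called, beside 24.3% of all genes, and the median mean change was 0.10. PSMD14, the lid's deubiquitinase, read 11.33 with ET-770 against 11.61 with DMSO, 10.69 with ET-770-DR against 10.89, and 11.48 with RM against 12.12. It was lower in all 3 pairs, at 0.822-fold, 0.874-fold and 0.643-fold, but its mean change of −0.37 missed the threshold (limma adjusted p = 0.076). PSMD3, another lid subunit, read 12.35 with ET-770 against 12.11 with DMSO, 11.76 with ET-770-DR against 11.25, and 11.99 with RM against 11.77. PSMD8 read 12.80 with ET-770 against 12.66 with DMSO, 12.50 with ET-770-DR against 12.16, and 11.44 with RM against 11.28. Both were higher in all 3 pairs, with mean changes of 0.33 and 0.21, as was PSMD6 with 0.13. PSMD11 and PSMD12 were higher with ET-770 and ET-770-DR and lower with RM, at −0.21 and −0.20.

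The assembly chaperones of the core gave both a called rise and a split between compounds. PSMG3, whose product helps build the alpha ring, read 11.37 with ET-770 against 10.85 with DMSO, 10.68 with ET-770-DR against 10.04, and 9.92 with RM against 9.37. It rose by a like amount in each pair, 1.43-fold, 1.56-fold and 1.47-fold, a mean change of 0.57 (SE 0.12, n = 3 pairs, limma adjusted p = 0.0071). PSMG1 read 10.70 with ET-770 against 10.08 with DMSO, 10.12 with ET-770-DR against 9.43, and 9.40 with RM against 9.41. It stood at 1.53-fold and 1.60-fold with ET-770 and ET-770-DR and at 0.996-fold with RM, and was not called (limma adjusted p = 0.077). PSMG2, the partner of PSMG1, read 11.66 with ET-770 against 11.79 with DMSO, 10.81 with ET-770-DR against 11.04, and 9.52 with RM against 9.84. It was lower in all 3 pairs by a mean of −0.23 (limma adjusted p = 0.24), opposite to the mean of PSMG1. PSMG4, the partner of PSMG3, had signals below the median of all genes on each array and a mean change of 0.17. POMP, the maturation factor of the core, read 12.50 with ET-770 against 12.49 with DMSO, 11.74 with ET-770-DR against 11.50, and 10.78 with RM against 10.90. Its changes went both ways and their mean of 0.04 turned negative after quantile normalization (−0.0046).

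None of the 3 members that are assembly factors of the base passed the test, beside 24.3% of all genes. PSMD5 read 10.79 with ET-770 against 10.62 with DMSO, 10.19 with ET-770-DR against 9.87, and 10.09 with RM against 10.17. PSMD9 read 8.80 with ET-770 against 8.81 with DMSO, 7.90 with ET-770-DR against 8.01, and 8.43 with RM against 8.66. PSMD10 (gankyrin) read 12.21 with ET-770 against 12.20 with DMSO, 11.65 with ET-770-DR against 11.51, and 10.98 with RM against 10.84. PSMD5 was highest against its control with ET-770-DR, at 0.32, and the mean changes of the 3 genes were 0.14, −0.11 and 0.09.

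Genes that work with the proteasome but carry no PSM symbol moved in both directions. Of 9 measured proteasome genes of this kind, ADRM1 rose (11.1%, beside 13.1% of all genes) and 3 fell (33.3%, beside 11.2%). ECPAS, an adaptor that tethers proteasomes to other compartments, read 9.88 with ET-770 against 10.37 with DMSO, 9.55 with ET-770-DR against 9.74, and 9.25 with RM against 10.07, and fell by 0.50 (limma adjusted p = 0.032). UBE3C, a ubiquitin ligase bound to the proteasome, fell by 0.47 (limma adjusted p = 0.032) and PAAF1, an assembly factor of the base, by 0.46 (limma adjusted p = 0.020). All 3 were lower in each pair, with overlapping groups. These calls were lost without the ET-770 experiment (limma adjusted p = 0.152 for ECPAS, 0.192 for UBE3C and 0.197 for PAAF1), those of ECPAS and UBE3C also without RM and after centring, and that of PAAF1 also without ET-770-DR. The deubiquitinases USP14 and UCHL5 had mean changes of 0.06 and 0.08 and were not called. Of 3 measured genes for ubiquitin and its activating enzymes none was called, beside 24.3% of all genes. UBA6 had a mean change of −0.25, from 10.43 with ET-770 against 10.75 with DMSO, 10.53 with ET-770-DR against 10.59, and 10.62 with RM against 11.01. UBA1, the main activating enzyme, had a mean change of 0.15, from 12.49 with ET-770 against 12.30 with DMSO, 11.51 with ET-770-DR against 11.31, and 11.36 with RM against 11.29.

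Among 10 shuttle factors and cofactors of VCP, the segregase that extracts tagged proteins, 1 rose (10%, beside 13.1% of all genes). None fell, beside 11.2% of all genes. UBQLN4, a shuttle for ubiquitin-tagged proteins, read 9.50 with ET-770 against 8.85 with DMSO, 9.01 with ET-770-DR against 7.86, and 8.72 with RM against 8.56, and rose by 0.66 (SE 0.18, n = 3 pairs, limma adjusted p = 0.023). Without the ET-770-DR experiment its mean was 0.41 and the call was lost (limma adjusted p = 0.123). UFD1, a cofactor of VCP, read 11.10 with ET-770 against 10.54 with DMSO, 10.59 with ET-770-DR against 9.99, and 10.39 with RM against 10.37, changes of 0.56, 0.60 and 0.03. It was not called (limma adjusted p = 0.083), but passed without the RM pair (0.00085). VCP itself had a mean change of 0.00.

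Of 11 measured genes of the NRF1 and NRF2 axis, 5 rose (45.5%, beside 13.1% of all genes) and none fell (beside 11.2%). This list, like the others, was chosen with earlier results of these data known. NFE2L1, which encodes NRF1, was not among them; it read 12.00 with ET-770 against 11.89 with DMSO, 11.64 with ET-770-DR against 11.56, and 11.43 with RM against 11.08, a mean change of 0.18 (limma adjusted p = 0.40). GCLC, a subunit of the enzyme that starts glutathione synthesis, read 10.58 with ET-770 against 9.98 with DMSO, 10.43 with ET-770-DR against 9.57, and 10.35 with RM against 9.53, and rose by 0.76 (SE 0.12, n = 3 pairs, limma adjusted p = 0.0019). KEAP1, the inhibitor of NRF2, read 10.16 with ET-770 against 9.45 with DMSO, 9.41 with ET-770-DR against 8.56, and 10.65 with RM against 10.04, and rose by 0.72 (SE 0.12, n = 3 pairs, limma adjusted p = 0.0023). The groups of GCLC did not overlap, whereas those of KEAP1 did. MAFG and MAFF, partners of both factors, rose by 0.56 and 0.46, and SRXN1 by 0.53. The calls of GCLC and KEAP1 were kept with each experiment left out, while MAFF was lost in every such fit, MAFG without ET-770 and SRXN1 without ET-770-DR. NFE2L2, which encodes NRF2, had a mean change of 0.33 and was not called (limma adjusted p = 0.14). NQO1 and GCLM, also targets of NRF2, had mean changes of −0.01 and 0.11. TXNRD1 and NGLY1, also on this list, had mean changes of −0.06 and −0.09, and both were lowest against DMSO with RM (−0.38 and −0.47). None of these genes was called. NRF1 and NRF2 bind the core of the antioxidant response element, TGACNNNGC. It was held on either strand by 14 of the 39 members with a window, or 35.9%. Of the 27305 genes with a window, 16.1% held it. For this and the other motifs, these genes were not matched to the members by signal, base composition or number of windows. Each motif looked for was held by a larger share of members than of all genes with a window. Among the called members, PSME2, which rose, and PSMD1, which fell, held the core. PSMB8, PSMB10 and PSMA5, which rose, did not, and PSMG3 had no window.

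**Figure D4:**
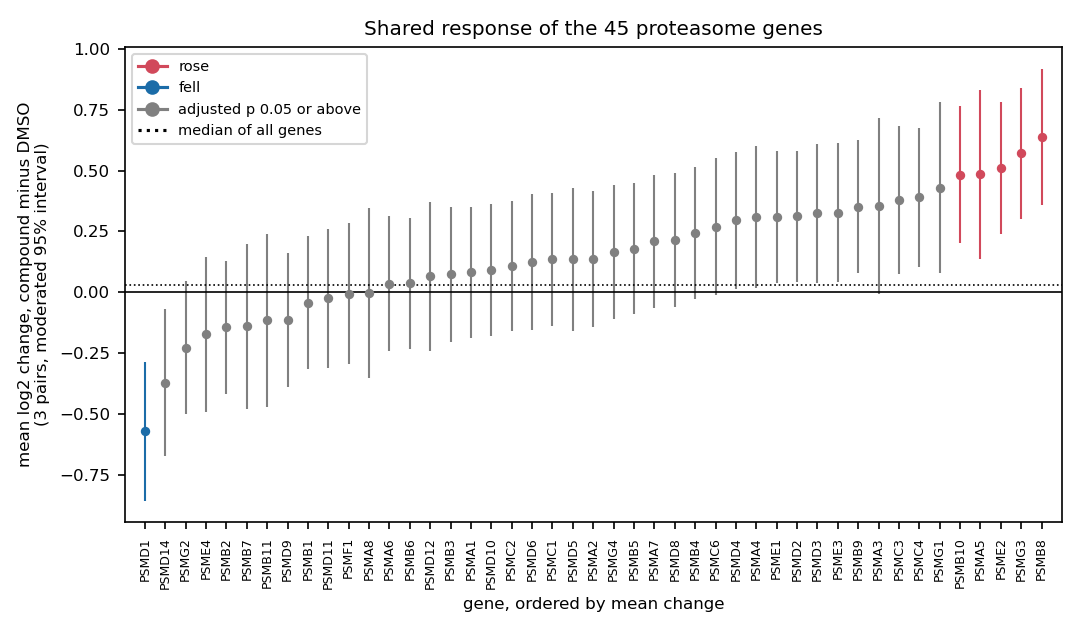
Mean log2 change over the 3 pairs for each of the 45 members, with its 95% interval from limma, ordered by mean change. Red points rose, the blue point fell, grey points did not pass the adjusted threshold, and the dotted line is the median of all genes. PSMB8 has the highest mean at 0.64 and PSMD1 the lowest at −0.57.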

How the data were processed

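Total RNA of 6 U373MG cultures, 1 per array, was hybridized by the authors to Human Gene 1.0 ST arrays and normalized by RMA in Affymetrix Expression Console; the deposited values are log2 signals of 33297 probes. Of these, 19460 carried 1 symbol in the platform annotation, 1754 several and 12083 none; 1-symbol probes were averaged into 18418 genes, with no filter. limma (3.58.1, R 4.3.3) was fitted to all genes with treatment and experiment as terms, two-sided. Benjamini-Hochberg adjustment was made over all genes, with a threshold of 0.05. Standard errors, intervals and p-values are moderated: a gene's spread between the 3 pairs of different compounds is drawn towards that of all genes. PSMG3, for example, had an SD of 0.068 over the pairs and an SE of 0.12. An SE given here is therefore not the spread of that gene's own pairs alone. A compound array and its own DMSO array deviated together from their arm means (correlation 0.83, 0.69 and 0.82), against at most 0.24 for other pairs of arrays. With 1 array per arm, single compounds were described by 1.5-fold, with the 3-fold threshold of the methods as an alternative. Values on every array are given for the 3 members with the largest absolute mean change in each of 9 role groups, for 4 pairs of paralogs, for 2 genes in each of 5 companion lists, and for POMP, NFE2L1 and ADRM1. The members and lists were chosen with earlier results of these data known. Promoter windows come from RefSeq (GRCh38.p14) and matched 39 of 45 members by symbol. A gene with several windows was counted where any of them held the motif. Scripts were tested on simulated data. Alternatives were quantile normalization, median centring, the brightest probe per gene, a filter at the 30th percentile of signal, eBayes with trend, no block, pooled DMSO, and each experiment left out. The number of arrays limits the precision.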

Additional observations from a re-analysis of the deposited data

Results flagged for a closer look

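Of the 45 members, 13, or 28.9%, were higher than DMSO with at least 1 compound and lower with another, beside 49.0% of all genes. With 1 array per compound these differences were not tested, and some changes lie close to 0. The distance between the highest and the lowest log2 change of the 3 compounds was largest for PSMA3 (0.80), PSMB11 (0.77), PSMA8 (0.74), PSMB7 (0.69) and PSMG1 (0.69), of which PSMA8 and PSMB11 had low signals. It was 0.56 for PSME4, 0.49 for PSMD12, 0.39 for PSMD5, 0.33 for PSMD11 and 0.33 for PSMF1. PSMA6 (0.24), PSMB1 (0.18) and PSMB6 (0.086) differed least. RM was alone in its direction in 9 of the 13, ET-770-DR in 3 and ET-770 in 1. No share over all genes is given for this split, so it is not read as a difference between compounds. Among the 9, the RM changes of PSMA3 (−0.0002) and PSMG1 (−0.0055) were close to 0. No group had enough arrays for a search for outlying samples.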

How the results depend on the processing

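The median mean change of the members, 0.14, lay between 0.10 and 0.20 under each alternative run. The count of members that rose, 5, was 0 with no replicate block, 15 with eBayes trend and robust settings (33.3%, beside 15.1% of all genes), and 1 to 12 when each experiment was left out (1 without ET-770, or 2.22% beside 6.52%; 3 without ET-770-DR, or 6.67% beside 8.59%; 12 without RM, or 26.7% beside 19.0%). The count that fell, 1, was 0 with no replicate block, 2 after quantile normalization, 2 with trend and robust settings, and 0 to 1 when each experiment was left out. All 6 calls were kept under quantile normalization, centring, the brightest probe, the trend fit, the filter and without RM. Without ET-770-DR, PSMA5 (adjusted p = 0.28) and PSMB10 (0.10) were lost, and without ET-770 PSMD1 (0.060), PSMG3 (0.065), PSME2 (0.098), PSMB10 (0.106) and PSMA5 (0.147). Against the pooled DMSO arrays, members over 1.5-fold numbered 18 (ET-770), 1 (ET-770-DR) and 16 (RM); they numbered 0, 4 and 2 after quantile normalization, and 0 for each compound at 3-fold. Members lower by 1.5-fold numbered 1, 6 and 5 against pooled DMSO; with RM there was 1 after quantile normalization and 0 at 3-fold. Direction reversed for POMP (−0.0046 after quantile normalization, −0.053 to 0.13 when each experiment was left out), PSMA8 (0.024 after quantile normalization, 0.033 after centring, −0.19 to 0.185 when each experiment was left out) and PSMB7 (−0.30 to 0.046 when each experiment was left out). The cause was not tested. No called gene of the companion lists was called with no replicate block. The arrays give no depth, and PSMA8, PSMB11 and PSMG4 lay below the array median, where small changes are least sure.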

Other observations

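PSMC3IP, whose symbol falls outside the rule for proteasome members, was looked at after its values were seen. It read 10.45 with ET-770 against 8.72 with DMSO, 10.13 with ET-770-DR against 8.37, and 11.53 with RM against 10.56. It was 3.32-fold, 3.39-fold and 1.97-fold of DMSO with ET-770, ET-770-DR and RM, a mean change of 1.49 (SE 0.17, n = 3 pairs, limma adjusted p = 0.00024). No proteasome member changed by as much.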
